A study of Mus musculus with 24 samples.

Results

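Homologous recombination and Fanconi repair genes were followed across 24 mouse tumours of a study of pancreatic ductal adenocarcinoma. The list held 39 genes chosen by symbol, with earlier results of these data known. Probe sets of the array's own annotation matched 36 of them, with 1 probe set each, among 19505 genes measured, and Rbbp8, Xrcc2 and Rad54b were not analysed here. Total RNA from homogenized tumour tissue, 250 ng per sample, was hybridized to Clariom S arrays. Control tumours were vector treated and carried neither agent, and the other 3 groups received BMS754807, hydroxychloroquine or both agents together (the combination), with 6 tumours in each group. BMS754807 inhibits a pair of related kinases, IGF1R and the insulin receptor. Hydroxychloroquine keeps lysosomes from acidifying, so that autophagy cannot be completed. The mouse strain, age, tumour model, dose and treatment time, and whether the tumours of a group came from separate mice, were not given in the sources used here. Each error and p-value therefore describes the spread between these samples, which may be in part technical.

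Homologous recombination repairs a broken chromosome by copying the intact sister chromatid, and so works mainly in cells that have replicated their DNA. The kinases ATM and ATR signal the damage, nucleases and helicases resect the broken ends, and BRCA1, PALB2 and BRCA2 prepare the single strand to pair with its intact copy. The Fanconi anaemia pathway deals with crosslinks between the strands: its core complex attaches ubiquitin to the FANCD2 and FANCI pair, which then directs the cutting and recombination steps. In pancreatic cancer, inherited loss of BRCA1, BRCA2, PALB2 or ATM is known to raise risk, and tumours that lack BRCA function are known for their sensitivity to platinum drugs and PARP inhibitors. Many of these genes are transcribed mainly in proliferating cells.

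All values are log2 array signal, and a difference of 1 is a doubling. Levels of different genes were not set against each other, since probe sets differ in brightness. No member lay in the dimmest 0.25 of genes, whose upper bound was a mean of 3.62, and the dimmest member, Mus81, had a mean of 6.20 over the 24 tumours. Array medians lay between 6.79 and 7.03. Epithelial markers were well expressed in every tumour, with a list mean between 11.69 and 13.47. Skeletal muscle markers ran from a list mean of 4.36 to 13.01, and 5 tumours, numbered as in the labels, stood at the top of that score: control 5, BMS754807 tumours 2 and 6, hydroxychloroquine 5 and combination 1. The lowest array weights, which measure how well an array follows its group, belonged to BMS754807 tumour 6 (0.419), control 5 (0.518) and hydroxychloroquine 4 (0.593). In bulk tumour RNA, fewer cells of a type and less RNA per cell cannot be told apart.

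**Figure D1:**
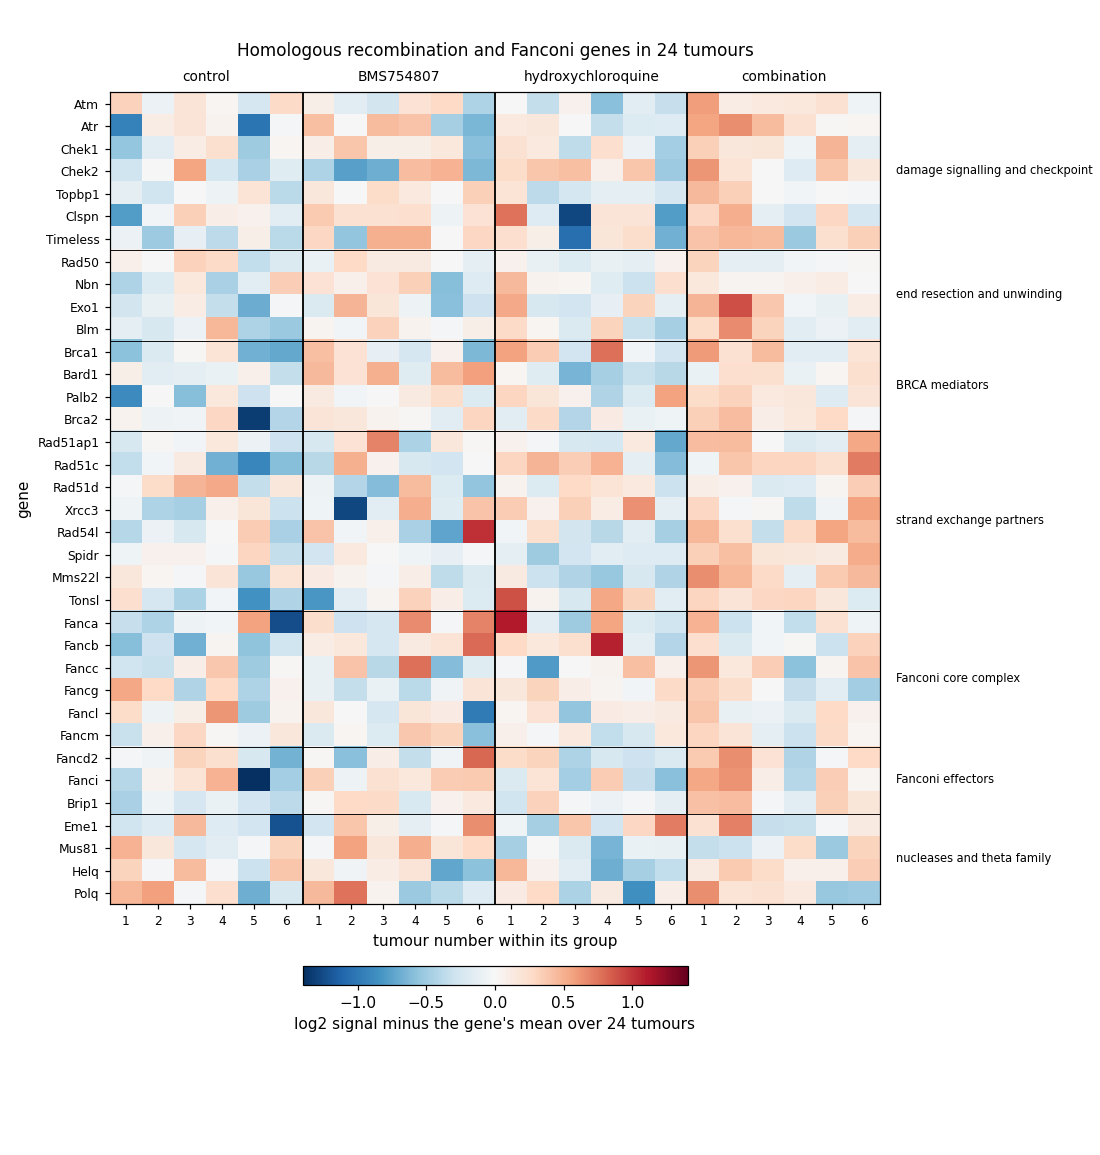
Each row is 1 of the 36 measured genes, ordered by role, and each column 1 of the 24 tumours, ordered by group. Colour gives the log2 signal minus that gene's mean over the 24 tumours. Control 5 has the lowest mean over the genes (-0.34) and combination 1 the highest (0.34).

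Promoter sequence was examined because the list was read beside DNA replication genes, many of which are known targets of the E2F factors. RefSeq's promoter table for build GRCm38.p6 held windows for 29 of the 36 genes. Within the 250 bases before the annotated start, either strand was searched for 4 E2F words, TTTCCCGC, TTTGGCGC, TTTCGCGC and TTTGCCGC. They occurred in 1.86% of 32851 windows in the table. Counting a gene once if any of its windows held a word, 5 of the 29 genes (17.2%) did, against 2.81% of 15691 genes on the array. The 5 are shown 5′ to 3′ on the gene's strand, with the word in capitals, and they serve as BRCA mediators (Bard1 and Brca2), damage signalling (Chek2, a checkpoint kinase, and Topbp1) and the Fanconi core complex (Fancg).
Bard1: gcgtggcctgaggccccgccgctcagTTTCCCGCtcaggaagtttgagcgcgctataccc
Brca2: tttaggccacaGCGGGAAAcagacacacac
Chek2: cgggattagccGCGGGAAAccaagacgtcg
Topbp1: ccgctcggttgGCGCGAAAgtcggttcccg
Fancg: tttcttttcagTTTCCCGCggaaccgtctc
The Bard1 stretch is chr1:71103148-71103207 on the minus strand, and its word ends 202 bases before the start. The others are chr5:150522442-150522471 (plus), chr5:110839820-110839849 (plus), chr9:103305187-103305216 (plus) and chr4:43010335-43010364 (minus). For each of these, a longer stretch around the word overlaps the longest RefSeq model of its own gene. The CCAAT box, searched as CCAAT on either strand, was in 13 of the 29 genes (44.8%), against 39.2% of array genes. The cell cycle homology region, searched as TTTGAA, was in 2 (6.9%), Bard1 and Polq, against 16.1% of array genes. Each match is a description of letters in a window.

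The first question is how the repair genes stood under inhibition of the receptors by BMS754807. No member passed an adjusted p of 0.05 in limma, as was so for all 19505 genes (0%), while 1146 genes (5.88%) had an unadjusted p under 0.05. Of the 36 members, 26 lay above control, against 50.0% of all genes, with a median difference of 0.18 against 0.0017 over all genes. Members at an unadjusted p under 0.05 numbered 4 on the higher side (background 2.78%) and 1 on the lower (3.09%). The median was 0.082 and the higher count 2 with Mki67 as a covariate, and the median was 0.097 without the 5 muscle-rich tumours. Without control 3 or control 4 the higher count was 7 or 8, and without control 3, control 4, BMS754807 3 or BMS754807 6 the lower count was 0. Markers of other tissues also lay higher under BMS754807: skeletal muscle in 11 of 11 genes (median 1.46; list means of 4.64 to 10.64 against 4.39 to 10.42 in control), adipocyte in 7 of 7 (1.14; 5.13 to 12.27 against 6.08 to 8.68) and fibroblast in 9 of 9 (0.22; 13.00 to 14.68 against 12.77 to 14.45). The part of these tissues in the members' values was not tested.

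The BRCA mediators all lay above control in BMS754807 tumours. Bard1, the partner of Brca1 in its ubiquitin ligase, read 8.40, 8.62 and 8.82 (lowest, median and highest) in control and 8.56, 9.19 and 9.31 in BMS754807 tumours. The groups overlapped, and 5 of 6 treated tumours lay above the control mean. The difference was 0.43 ± 0.13 (SE, n = 6 per group, adjusted p = 0.793). Brca2, a mediator of strand pairing, read 9.13, 10.40 and 10.75 in control and 10.30, 10.57 and 10.76 under BMS754807, a difference of 0.35 ± 0.19. One tumour set much of that gap: without control 5, the control tumour at 9.13, it was 0.13. Brca1 differed by 0.28 ± 0.21 (0.18 without BMS754807 1) and Palb2, the bridge between Brca1 and Brca2, by 0.32 ± 0.17.

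Fanconi genes were divided. Fancb, a core complex subunit, read 7.47, 7.71 and 8.18 in control and 7.90, 8.28 and 8.93 under BMS754807. All 6 treated tumours lay above the control mean, the ranges overlapped, and the difference was 0.58 ± 0.20 (adjusted p = 0.793). Brip1, a helicase that binds Brca1, read 9.67, 9.87 and 10.06 against 9.91, 10.22 and 10.40 (0.34 ± 0.12). Fancl, the ubiquitin ligase of the core complex, and Fancg, another subunit, lay on the other side at -0.21 ± 0.19 and -0.18 ± 0.16, so that 3 of the 6 core genes were above control with a median of 0.0075. Fancd2, the ubiquitin-bearing effector, stood at 0.06 ± 0.21, between -0.10 without BMS754807 tumour 6 and 0.18 without BMS754807 2, while its partner Fanci stood at 0.49 ± 0.24. For Fanci, control 5 read 6.37 and the other control tumours 7.29 to 8.26, and a difference without control 5 is not given here.

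Among damage signalling genes, 5 of 7 lay above control under BMS754807. Topbp1, the activator of Atr, read 11.82, 12.10 and 12.39 in control and 12.20, 12.35 and 12.53 in treated tumours (0.26 ± 0.12). Chek1, the checkpoint kinase downstream of Atr, differed by 0.18 ± 0.17 (0.096 without control 1, 0.30 without BMS754807 6) and Atm by -0.13 ± 0.14 (-0.19 without BMS754807 5, -0.052 without BMS754807 6). All 4 resection genes lay above control, by 0.03 (Rad50) to 0.23 (Blm). Of 8 strand exchange partners 5 did. Rad51d, a strand exchange partner, was the lowest of all members: 8.40, 8.94 and 9.27 in control against 8.13, 8.44 and 9.18, with 5 of 6 treated tumours below the control mean (-0.41 ± 0.17, adjusted p = 0.839). Rad51ap1, another of these partners, stood at 0.15 ± 0.18, at 0.023 without BMS754807 3 and at 0.25 without BMS754807 4. Helq, a helicase for stalled forks, stood at -0.28 ± 0.19.

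**Figure D2:**
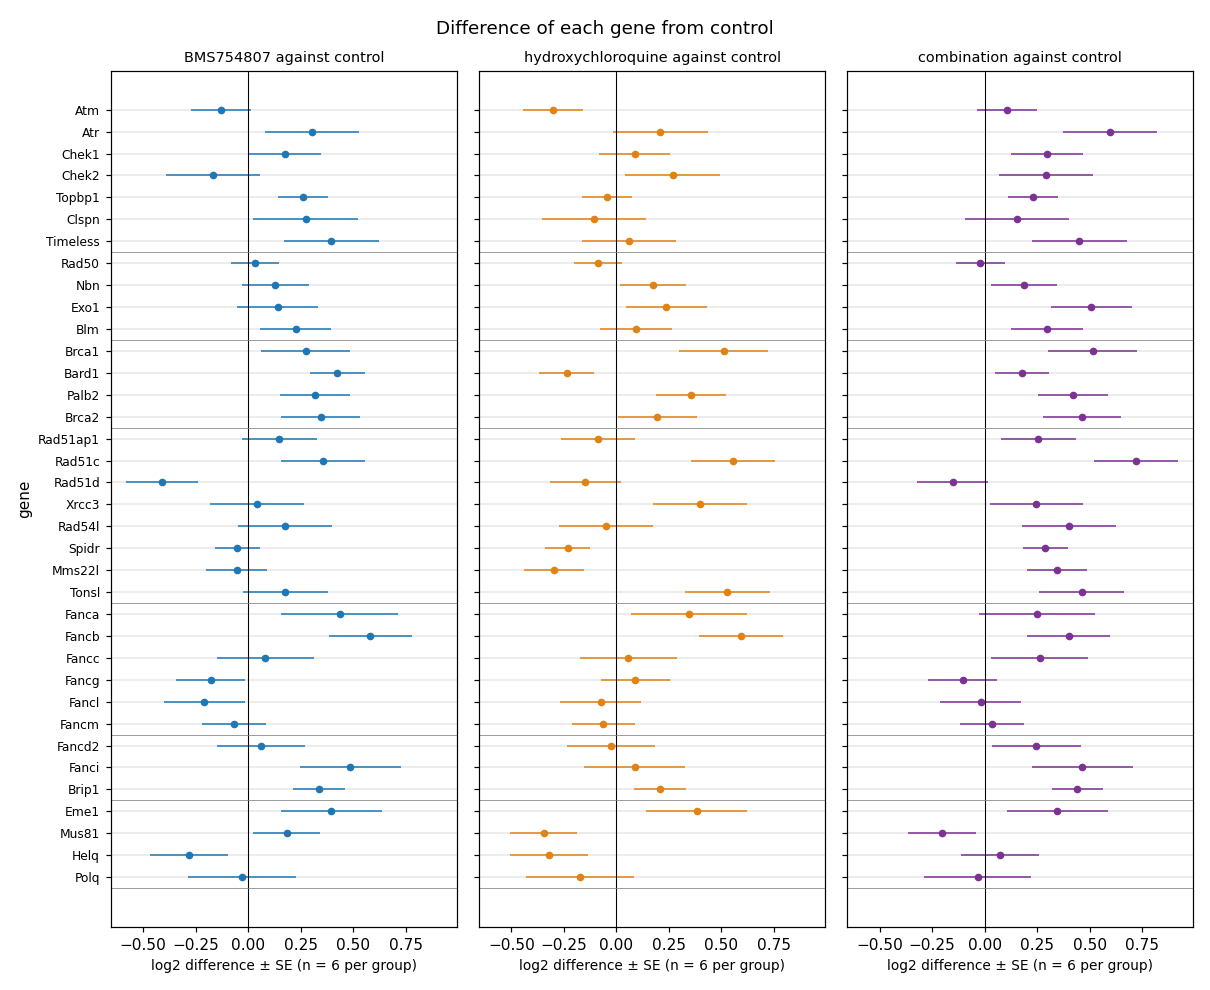
Log2 difference from control of each of the 36 genes, by role, for BMS754807, hydroxychloroquine and the combination. Points are fitted differences and bars 1 SE of the limma fit (n = 6 tumours per group). The 3 sets share the same 6 control tumours. Rad51c has the highest point of the combination (0.72) and Mus81 the lowest (-0.20).

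Hydroxychloroquine tumours were set against control in the same way, with the same 6 control tumours. In limma 0 members and 0 of 19505 genes (0%) passed, and 939 genes (4.81%) had an unadjusted p under 0.05. The members were evenly divided: 20 of 36 lay above control, against 49.6% of all genes, and the median was 0.073 against 0 for all genes. At an unadjusted p under 0.05 there were 5 higher members (background 2.43%) and 3 lower (2.38%). The higher count was 3 without control 1 and 2 without control 5, hydroxychloroquine 1 or the 3 tumours of lowest weight. The lower count lay between 1 and 5 over the settings tried. It was 1 without any of control 1 to 4 or hydroxychloroquine 2 or 4, and 1 with trended and robust variance. It was 5 without hydroxychloroquine 1, with quantile normalization and with the epithelial score as a covariate. The median was 0.0048 without control 5, 0.12 without control 4 or with Mki67 as a covariate, 0.038 with quantile normalization or array weights, 0.018 without the muscle-rich tumours and -0.025 without the 3 tumours of lowest weight. Skeletal muscle markers lay higher in 11 of 11 genes (median 1.195; list means of 4.42 to 13.01 against 4.39 to 10.42 in control). Fibroblast markers did so in 9 of 9 (0.42; 12.92 to 14.97 against 12.77 to 14.45). Adipocyte markers lay lower in 7 of 7 (-0.55; 5.21 to 10.19 against 6.08 to 8.68). The ranges overlapped, and no muscle or adipocyte gene reached an unadjusted p under 0.05 in limma.

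Fancb again lay higher, at 7.73, 8.33 and 9.22 under hydroxychloroquine against 7.47, 7.71 and 8.18 in control (0.59 ± 0.20, adjusted p = 0.979). Rad51c, a strand exchange partner, read 7.76, 8.21 and 8.80 in control and 8.07, 8.995 and 9.16 under hydroxychloroquine (0.55 ± 0.20). Tonsl, the partner of Mms22l at damaged forks, read 6.11, 6.64 and 7.20 against 6.74, 7.15 and 7.86 (0.53 ± 0.20). All 6 treated tumours were above the control mean for Tonsl, and 5 of 6 for Rad51c. Brca1 read 8.42, 8.75 and 9.33 in control and 8.86, 9.29 and 9.91 under hydroxychloroquine (0.51 ± 0.21), also with all 6 above the control mean. Bard1, its partner, lay on the other side at -0.24 ± 0.13.

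On the lower side, the nuclease subunit Mus81 read 5.96, 6.27 and 6.68 in control and 5.54, 6.04 and 6.19 under hydroxychloroquine (-0.35 ± 0.16). Spidr, a scaffold protein of recombination that binds Blm, read 9.41, 9.76 and 10.05 against 9.25, 9.56 and 9.62 (-0.23 ± 0.11). Atm read 10.13, 10.47 and 10.68 against 9.77, 10.13 and 10.42 (-0.30 ± 0.14). All 6 treated tumours were below the control mean for each of these 3 genes, with overlapping ranges and an adjusted p of 0.979. Brca2 (0.20 ± 0.19), Chek1 (0.087 ± 0.17), Fancd2 (-0.025 ± 0.21) and Rad51ap1 (-0.088 ± 0.18) lay within about 1 SE of control. Brca2 stood at -0.02 without control 5, Chek1 at 0.006 without control 1, Fancd2 between -0.14 and 0.051 as single tumours were left out, and Rad51ap1 at 0.02 without hydroxychloroquine 6.

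Tumours given both agents were then set against control. In limma 0 members and 0 of 19505 genes (0%) passed, and 986 genes (5.06%) had an unadjusted p under 0.05. Of the 36 members 30 lay above control, against 51.4% of all genes, with a median of 0.28 against 0.0067. At an unadjusted p under 0.05 there were 10 members on the higher side (background 2.66%) and 0 on the lower (2.39%). The 10 were Brip1, Rad51c, Spidr, Atr, Exo1, Palb2, Brca2, Brca1, Mms22l and Tonsl. Leaving out single tumours gave 7 to 14, and leaving out the 5 tumours rich in muscle markers gave 4, with 28 members above control and a median of 0.21.

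Rad51c read 8.61, 8.98 and 9.40 in the combination and 7.76, 8.21 and 8.80 in control. All 6 combination tumours were above the control mean and the ranges overlapped between 8.61 and 8.80. The difference was 0.72 ± 0.20, or 1.65-fold (adjusted p = 0.849). Brip1 read 9.96, 10.38 and 10.55 against 9.67, 9.87 and 10.06 (0.44 ± 0.12, adjusted p = 0.849). Spidr read 9.87, 10 and 10.26 against 9.41, 9.76 and 10.05 (0.29 ± 0.11, adjusted p = 0.944).

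By role, all 7 damage signalling genes, all 4 BRCA mediators and all 3 Fanconi effectors lay above control in the combination, as did 7 of 8 strand exchange partners. Brca1 read 8.97, 9.34 and 9.73 (0.52 ± 0.21 against control) and Brca2 10.44, 10.67 and 10.89 (0.46 ± 0.19, or 0.25 without control 5). Atr, the kinase that answers stalled replication, read 9.21, 9.53 and 9.84 against 8.17, 9.20 and 9.37 in control (0.60 ± 0.22). Exo1, the exonuclease of long-range resection, read 8.42, 8.77 and 9.43 against 7.83, 8.35 and 8.63 (0.51 ± 0.19). Chek1 (0.30 ± 0.17), Rad51ap1 (0.26 ± 0.18), Fancd2 (0.25 ± 0.21) and Atm (0.11 ± 0.14) differed by less, and Atm stood at 0.026 without combination 1 and -0.036 without the 5 muscle-rich tumours. Fancd2 stood at 0.13 without control 6. Of the 5 genes with an E2F word in the promoter window, Brca2, Chek2 (0.29 ± 0.23), Topbp1 (0.23 ± 0.12) and Bard1 (0.18 ± 0.13) lay above control. Fancg lay below it, and of all 36 members 30 lay above control. Under BMS754807, Chek2 (-0.17 ± 0.23) and Fancg (-0.18 ± 0.16) lay below control. Under hydroxychloroquine, Topbp1 (-0.043 ± 0.12) and Bard1 (-0.24 ± 0.13) did. The core complex (4 of 6 above control, median 0.14) and the nucleases with Helq and Polq (2 of 4, median 0.02) were nearer to control. The 3 lower genes of smallest p were Mus81 (-0.20 ± 0.16), Rad51d (-0.15 ± 0.17) and Fancg (-0.11 ± 0.16).

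Values of other lists in the combination are given beside these, and their part in the result was not tested. All 22 measured DNA replication genes lay above control, with a median of 0.37 and 13 at an unadjusted p under 0.05, led by Pola1, the catalytic subunit of polymerase alpha (0.65 ± 0.15), and Rfc4, of the clamp loader (0.47 ± 0.13). Mki67, the proliferation marker, stood at 0.12 ± 0.16. Macrophage markers were lower in 10 of 10 genes, with list means from 8.59 to 9.89 in the combination and from 9.04 to 10.77 in control, and endothelial markers in 8 of 8 (7.93 to 8.55 against 7.96 to 10.07). Epithelial markers were higher in 11 of 13 (12.38 to 13.29 against 11.83 to 13.04), and adipocyte and fibroblast markers lower in 5 of 7 (median -0.42) and 6 of 9 (-0.077). With the epithelial score as a covariate, 29 members lay above control and 12 reached an unadjusted p under 0.05. With Mki67 as a covariate these counts were 30 and 10. These covariate fits are not a test of the part of cell content or proliferation in the result.

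The main effects averaged each agent over the presence and absence of the other, with 12 tumours on each side. In limma 0 members and 0 of 19505 genes (0%) passed for BMS754807, with 1115 genes (5.72%) at an unadjusted p under 0.05. There, 31 of 36 members lay higher (50.5% of all genes), with a median of 0.19, and 9 reached an unadjusted p under 0.05 (background 3.03%), with 0 lower (2.69%). The lower count was 2 without control 5 and 1 without BMS754807 4. By p, Bard1 came first of the members with 0.42 ± 0.092 (adjusted p = 0.574) and ranked 4 among all genes, with 12 of 12 treated tumours above the mean of the others. Brip1 (0.29 ± 0.087) and Topbp1 (0.27 ± 0.084) had the next smallest p, while the largest difference was that of Fanci (0.43 ± 0.17). The lowest value of Fanci was 6.37 in control 5, and the next lowest 7.19 in hydroxychloroquine 6. With Mki67 as a covariate 24 members lay higher and the median was 0.12. The lower genes of smallest p were Rad51d (-0.21 ± 0.12), Fancg (-0.19 ± 0.12) and Fancl (-0.076 ± 0.14, and 0.01 without BMS754807 tumour 6). Brca2 stood at 0.31 ± 0.13, Rad51ap1 at 0.25 ± 0.13, Chek1 at 0.19 ± 0.12, Fancd2 at 0.17 ± 0.15, Atm at 0.14 ± 0.10 and Brca1 at 0.14 ± 0.15. Brca2 stood at 0.20 without control 5, Fancd2 at 0.086 without BMS754807 6 and Brca1 at 0.092 without BMS754807 1. Adipocyte markers lay higher in 7 of 7 genes (median 0.71) and epithelial in 11 of 13 (0.14), and macrophage and endothelial markers lower in 9 of 10 (-0.36) and 8 of 8 (-0.15). No adipocyte or endothelial gene reached an unadjusted p under 0.05 in limma. The adipocyte score of single tumours ran from -2.51 in combination 3 to 5.00 in BMS754807 6, with BMS754807 3 at -2.14. DNA replication genes lay higher in 22 of 22 (median 0.22), with 11 at an unadjusted p under 0.05 in limma. G2 and M phase genes did so in 22 of 22 (0.25), with 12 at that level.

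For hydroxychloroquine the main effect again gave 0 members and 0 genes past the threshold (0%) in limma, with 1577 genes (8.09%) at an unadjusted p under 0.05. Here 29 of 36 members lay higher (50.2% of all genes), with a smaller median of 0.081. The median was 0.054 without hydroxychloroquine 1, 0.038 without the muscle-rich tumours, 0.051 with quantile normalization and 0.14 with Mki67 as a covariate. At an unadjusted p under 0.05 there were 5 higher (4.54%) and 2 lower (3.55%). The higher count was 3 without control 5 or combination 1, 1 without the 5 muscle-rich tumours and 8 with Mki67 as a covariate. Rad51c (0.46 ± 0.14) and Tonsl (0.41 ± 0.14) were higher in 11 of 12 tumours and Brca1 (0.38 ± 0.15) in 10 of 12. Mus81 (-0.37 ± 0.11) was lower in 10 of 12 and Bard1 (-0.24 ± 0.092) in 9 of 12, and Rad50 was the next lower gene at -0.07 ± 0.082. The lowest adjusted p of a member was 0.335, for Rad51c and Mus81. Brca2 stood at 0.16 ± 0.13, Chek1 at 0.10 ± 0.12, Fancd2 at 0.08 ± 0.15, Rad51ap1 at 0.01 ± 0.13 and Atm at -0.034 ± 0.10. Without 1 tumour, Brca2 stood at 0.049 (control 5), Chek1 at 0.041 (BMS754807 6), Fancd2 at 0.021 (control 6) or 0.16 (BMS754807 6), Rad51ap1 at -0.041 (BMS754807 4) and Atm at 0.0027 (hydroxychloroquine 4). Macrophage, endothelial and adipocyte markers lay lower in 10 of 10, 8 of 8 and 7 of 7 genes (medians -0.22, -0.28 and -0.93) and epithelial markers higher in 10 of 13 (0.20). Of these, 2 macrophage, 1 endothelial and 1 adipocyte gene reached an unadjusted p under 0.05 in limma. Epithelial genes at that level numbered 0 on the higher side and 2 on the lower. DNA replication genes lay higher in 17 of 22 (0.13) and G2 and M phase genes in 5 of 22 (-0.089).

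The combination was also set against each single agent. Against BMS754807, 26 of 36 members lay higher (49.2% of all genes) with a median of 0.11 (0.18 without combination 4, 0.20 with Mki67 as a covariate and 0.026 without the muscle-rich tumours), and 2 reached an unadjusted p under 0.05 on the higher side and 1 on the lower (5.13% and 3.48%). The higher count was 4 without BMS754807 2 or combination 4 and 5 without BMS754807 4, and the lower count was 0 without BMS754807 2 or combination 1, 2 or 5. Against hydroxychloroquine, 29 of 36 lay higher (51.8%) with a median of 0.20 (0.12 with Mki67 as a covariate), and 6 reached that level on the higher side (2.80%) and 0 on the lower (2.59%). In both comparisons limma called 0 members and 0 of 19505 genes (0%), with 1679 and 1052 genes (8.61% and 5.39%) at an unadjusted p under 0.05. Brca1 differed by 0.24 ± 0.21 from BMS754807 and by 0.0033 ± 0.21 from hydroxychloroquine, the latter between -0.089 and 0.12 as single tumours were left out. For Brca2 the values were 0.12 ± 0.19 and 0.27 ± 0.19, for Fancd2 0.19 ± 0.21 and 0.27 ± 0.21, and for Rad51ap1 0.11 ± 0.18 and 0.35 ± 0.18. Chek1 stood at 0.12 ± 0.17 and 0.21 ± 0.17, the first at -0.004 without BMS754807 6, and Atm at 0.24 ± 0.14 and 0.41 ± 0.14. Against BMS754807, Rad51ap1 stood at 0.006 without BMS754807 4, Fancd2 at 0.069 without BMS754807 2, Brca1 at 0.12 without BMS754807 6, Brca2 at 0.068 without BMS754807 5 and Atm at 0.15 without combination 1. Against hydroxychloroquine, Fancd2 stood at 0.18 without combination 2 and Chek1 at 0.13 without hydroxychloroquine 6.

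The marker lists stood as follows in these comparisons, with no gene past the threshold in limma. In both, no endothelial, fibroblast, skeletal muscle or adipocyte gene reached an unadjusted p under 0.05. Against BMS754807, the combination had lower macrophage (10 of 10 genes, median -0.42), endothelial (8 of 8, -0.59), fibroblast (9 of 9, -0.32), skeletal muscle (10 of 11, -1.27) and adipocyte markers (7 of 7, -1.36), and higher epithelial markers (10 of 13, 0.46). Against hydroxychloroquine, macrophage (10 of 10, -0.48), endothelial (8 of 8, -0.42), fibroblast (9 of 9, -0.49) and skeletal muscle markers (11 of 11, -0.90) were lower, and epithelial (13 of 13, 0.21) and adipocyte markers (7 of 7, 0.54) higher. With the epithelial score as a covariate the median of the members was 0.14 against BMS754807 and 0.21 against hydroxychloroquine, and the part of the marker lists was not tested.

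Spidr was the only member whose groups did not overlap in any comparison of 2 groups. It read 9.87 to 10.26 in the combination and 9.25 to 9.62 under hydroxychloroquine, a difference of 0.52 ± 0.11 (adjusted p = 0.769), which had the smallest p of all 19505 genes. Of all genes 0.154% were separated in that direction. BMS754807 tumours lay mostly between, at 9.48, 9.71 and 9.88, next to control at 9.41, 9.76 and 10.05. Mms22l, the partner of Tonsl, had a like order, with 9.60, 10.14 and 10.38 in the combination, 9.20, 9.37 and 9.85 under hydroxychloroquine, 9.37, 9.75 and 9.84 under BMS754807 and 9.20, 9.82 and 9.92 in control. Its difference from hydroxychloroquine was 0.64 ± 0.14 (adjusted p = 0.769), and its rank by p was 4 among all genes. Spidr and Mms22l were described in this comparison after their values were seen.

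The interaction asks whether BMS754807 had another effect with hydroxychloroquine than without it. In limma 0 members and 0 of 19505 genes (0%) passed, and 985 genes (5.05%) had an unadjusted p under 0.05. Members lay evenly, with 18 above 0 (50.7% of all genes) and 18 below. Of these, 4 were at an unadjusted p under 0.05 on the higher side (2.74%) and 1 on the lower (2.31%). Spidr had 0.57 ± 0.15 (adjusted p = 0.817) and Mms22l 0.70 ± 0.20 (adjusted p = 0.907): each was nearly level with control under BMS754807, lower under hydroxychloroquine and higher under both. Atm (0.54 ± 0.20) and Helq (0.68 ± 0.26) had the same sign. Fancb went the other way at -0.78 ± 0.28, since it stood above control by 0.58 with BMS754807, 0.59 with hydroxychloroquine and 0.40 ± 0.20 with both. Spidr, Mms22l, Helq and Fancb were singled out here after their values were seen. Fancd2 (0.21 ± 0.30), Rad51ap1 (0.20 ± 0.25), Chek1 (0.033 ± 0.24), Brca2 (-0.077 ± 0.26) and Brca1 (-0.27 ± 0.30) lay within 1 SE of 0. Fancd2 stood at 0.094 without BMS754807 2, Rad51ap1 at 0.088 without hydroxychloroquine 6, Brca1 at -0.15 without hydroxychloroquine 4, Brca2 at 0.14 without control 5, and Chek1 between -0.091 and 0.11 as single tumours were left out.

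**Figure D3:**
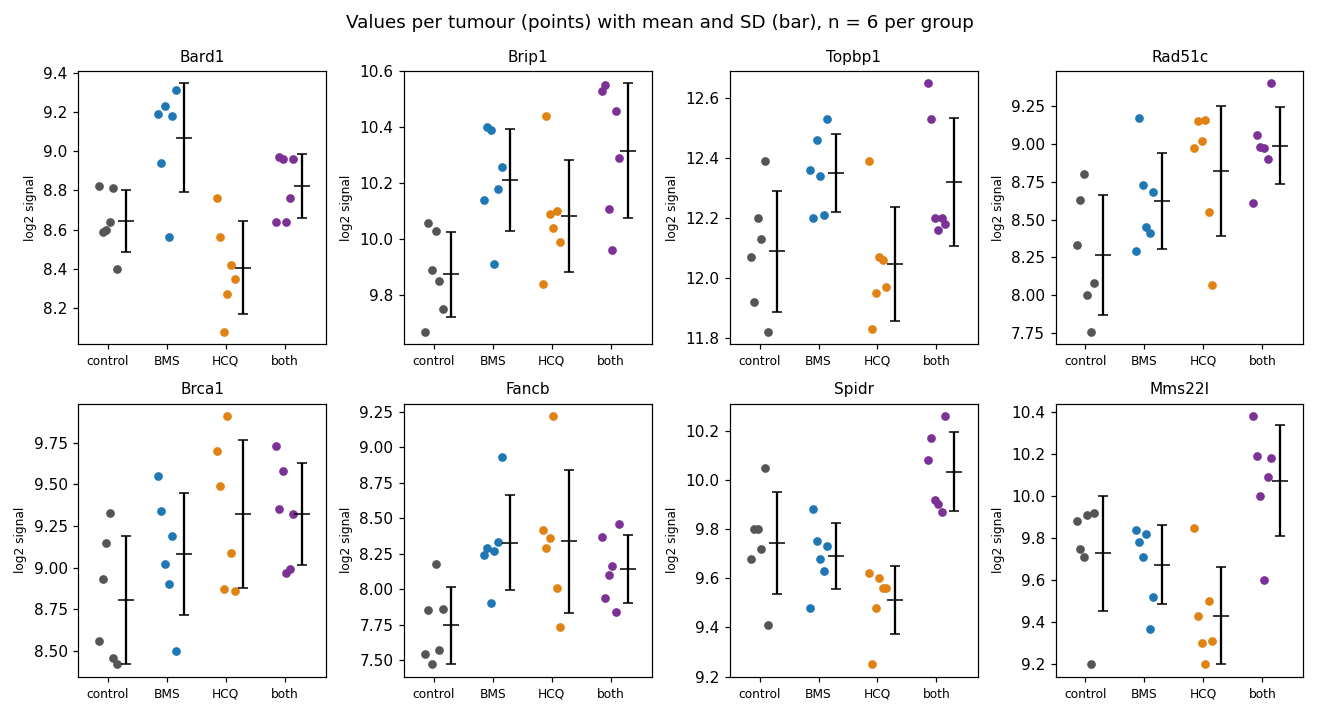
Log2 signal of 8 genes in each of the 24 tumours, by group (BMS, BMS754807; HCQ, hydroxychloroquine; both, combination), with the group mean and SD beside the points. Spidr in the combination (9.87 to 10.26) lies wholly above Spidr under hydroxychloroquine (9.25 to 9.62), and the other groups overlap both.

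The tumours of each group spread widely and the 4 groups overlapped. The mean over the 36 genes of each tumour's deviation from the gene means ran from -0.34 to 0.061 in control (median -0.12), from -0.069 to 0.10 under BMS754807 (0.030), from -0.20 to 0.19 under hydroxychloroquine (-0.034) and from -0.089 to 0.34 in the combination (0.12). Control 5 and control 6 were the lowest 2 tumours and combination 1 and combination 2 the highest 2. Control 5 and combination 1 are both among the 5 rich in muscle markers. In combination 1, 33 of the 36 genes lay above their own mean, and in control 5, 8 did. Mki67 was lowest in control 6 (14.41) and highest in BMS754807 1 (15.55), and its group medians were 15.22 in control, 15.43, 14.96 and 15.26 in the order above.

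Within groups, the members were set against each tumour's Mki67 with a slope that had a group term. In limma 0 of 19504 other genes (0%) passed the threshold, and 30 of the 36 members had a positive slope (50.5% of all genes), with a median of 0.22 log2 per log2 of Mki67 against 0.0034 over all genes. At an unadjusted p under 0.05, 7 had a positive slope (4.08%) and 1 a negative one (2.61%), and without control 6 the 7 became 11. Without the 2 tumours farthest in Mki67 (control 6 and hydroxychloroquine 3) the median slope was 0.34. Fanci had the steepest slope of the 36, 1.09 ± 0.27 (SE, adjusted p = 0.198), and 1.58 without control 6. Blm, the helicase mutated in Bloom syndrome, had 0.82 ± 0.18 (adjusted p = 0.144), Brca1 0.89 ± 0.25, Fancd2 0.84 ± 0.26 and Brca2 0.70 ± 0.23. Polq, the polymerase of theta-mediated end joining, had 0.83 ± 0.33 and Fanca, a core subunit, 0.81 ± 0.37.

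Other members had flatter slopes: Chek1 0.37 ± 0.24 (0.75 without control 6), Rad51ap1 0.20 ± 0.26, Atm -0.19 ± 0.21 and Nbn, of the end-binding complex with Rad50, -0.20 ± 0.23 (0.10 without control 6). Mus81 had the lowest slope, at -0.47 ± 0.21. For comparison, 22 of 22 G2 and M phase genes had a positive slope with a median of 0.76 and 21 at an unadjusted p under 0.05, and 19 of 22 DNA replication genes with a median of 0.36 and 7. Fitted with no group term, Fanci (adjusted p = 0.0242) and Blm (adjusted p = 0.0400) passed, among 56 genes, and over the 35 alternatives the adjusted p of Fanci reached 0.733 and that of Blm 0.733.

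**Figure D4:**
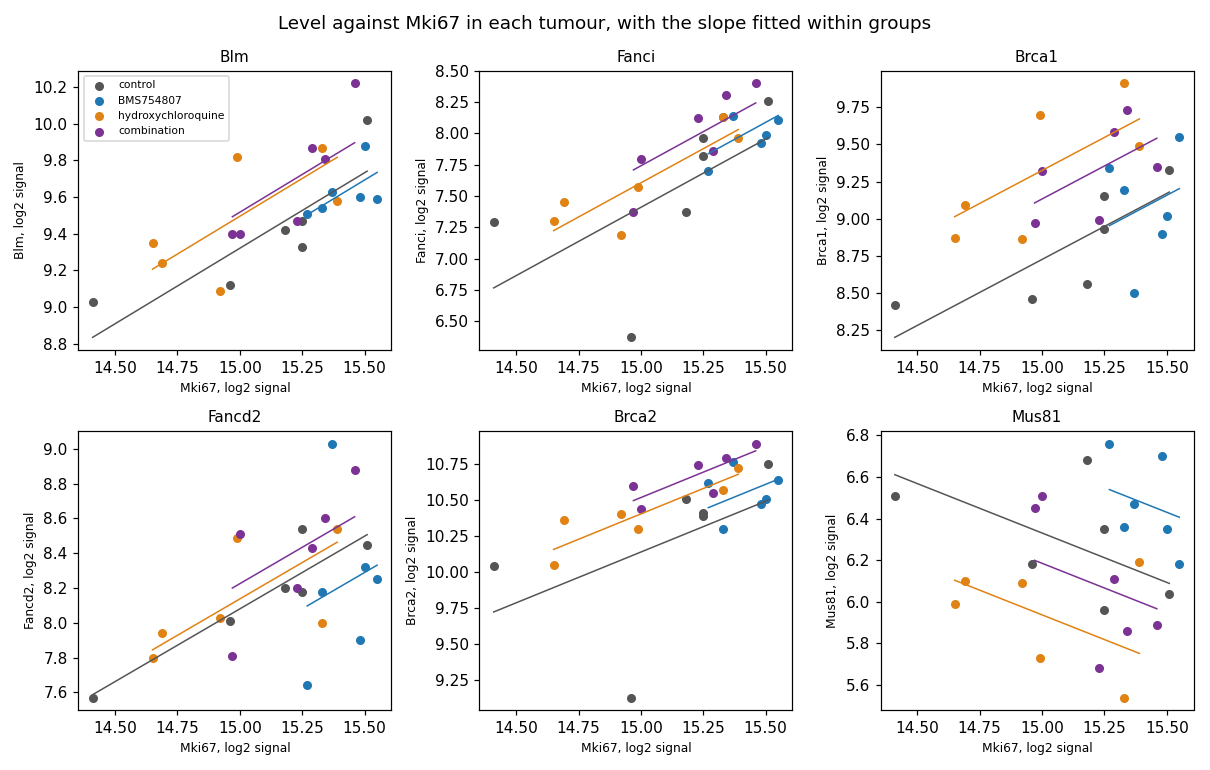
Log2 signal of selected genes against log2 Mki67 signal in the 24 tumours, coloured by group, with lines of the slope fitted within groups. Fanci has a fitted within-group slope of 1.09 and Mus81 has a slope of -0.47; control 6 is the tumour at the lowest Mki67 value (14.41).

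In the comparisons with control, the rest of the same pathways, and the other repair pathways, had smaller medians than the members. The members and lists were chosen with earlier results of these data known, so this order is not an independent result. It did not hold throughout: for the combination against BMS754807, mismatch repair had a median of 0.17 and the members 0.11. Of 29 further homologous recombination and Fanconi genes that were measured, 20 lay above control under BMS754807 (median 0.02), 16 under hydroxychloroquine (0.015) and 23 in the combination (0.08), where Mcm8, a helicase subunit of recombination, had the smallest p (0.61 ± 0.22). For end joining the counts were 4, 5 and 9 of 11, with medians of -0.053, -0.01 and 0.063, and Lig4, its ligase, stood at 0.55 ± 0.24 under BMS754807. Of 5 mismatch repair genes 2, 2 and 4 lay above control, of 13 base excision genes 8, 5 and 9, and of 14 nucleotide excision genes 7, 4 and 6. Of 16 targets of p53, the tumour suppressor that answers DNA damage, 6 lay above control under BMS754807, 13 under hydroxychloroquine and 9 in the combination, with medians of -0.027, 0.053 and 0.028. Among them Trp53inp1 stood at -0.52 ± 0.19 under BMS754807 and Cdkn1a, the cell cycle inhibitor p21, at 0.43 ± 0.31 under hydroxychloroquine. Of the G2 and M phase genes, 22 of 22 lay above the control mean under BMS754807 (median 0.37), 8 under hydroxychloroquine (-0.012) and 18 in the combination (0.17). For DNA replication genes the counts were 19, 15 and 22 of 22, with medians of 0.17, 0.13 and 0.37. No gene of these lists passed the threshold in limma.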

How the data were processed

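Transcriptome Analysis Console 4.0 is named in the submitters' processing notes, and normalization, summarization and build of the array are not given in the sources used here. The deposited table, made by the authors, held 22206 probe sets on 24 arrays with 0 missing values, from 1.45 to 19.0. Its unit was taken as log2 from those values. Of the probe sets 19572 had 1 gene symbol, 0 several and 2634 none, and the brightest per gene was kept, which left 19505 genes. Groups came from the titles. One limma 3.58.1 fit in R 4.3.3 had a coefficient per group (20 residual degrees of freedom, two-sided tests, Benjamini-Hochberg adjustment over all genes, threshold 0.05). The fit was also run on simulated data with noise independent between genes, and the share of changes recovered there is not given here. SDs are over the tumours of a group. SEs come from the limma fit, with a spread per gene shared by all 4 groups and moderated over all genes. They are not the spread of only the groups compared. Arrays have no count depth, so the number of tumours limits the precision. The members and lists were chosen with earlier results of these data known. Every member is counted, and those named have the 3 smallest p in each direction of each comparison with control and main effect, or are Brca1, Brca2, Fancd2, Rad51ap1, Chek1 and Atm; others were chosen after their values were seen. Alternatives were the replicate block, quantile normalization, a filter on dim genes, array weights, trended and robust variance, the mean of probe sets, epithelial score or Mki67 as covariate, and leaving out tumours. Replicate numbers were not taken to pair tumours.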

Additional observations from a re-analysis of the deposited data

Results flagged for a closer look

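Of 144 sets of 6 values (36 genes in 4 groups), 10 had 1 tumour far from the other 5 by Dixon's criterion, a share of 6.94%. Over all 19505 genes the share was 7.62%, and chance gives about 5%, so the members' share is near the background. Chek1 stood at 9.72 in BMS754807 6, against 10.39 to 10.69 in the other 5, and Fancl at 7.84 in the same tumour, against 8.60 to 9.01. Blm stood at 9.88 in BMS754807 3, against 9.51 to 9.63. Among hydroxychloroquine tumours, Fancc, a core complex subunit, stood at 6.83 in tumour 2, against 7.61 to 8.05, and Fancl at 8.28 in tumour 3, against 8.86 to 9.04. Among combination tumours, Rad50 stood at 12.43 in tumour 1 (11.98 to 12.14), Timeless, a fork protection factor, at 7.52 in tumour 4 (8.27 to 8.51), Palb2 at 6.98 in tumour 5 (7.30 to 7.48) and Tonsl at 6.77 in tumour 6 (7.12 to 7.27). Mms22l stood at 9.20 in control 5, against 9.71 to 9.92.

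Spidr was lower than the control mean in all 6 hydroxychloroquine tumours and higher than the BMS754807 mean in all 6 combination tumours. The interaction was 0.57 ± 0.15 log2 in limma and did not pass after adjustment over all genes (adjusted p = 0.817, and 0.543 to 0.994 over 34 alternatives).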

How the results depend on the processing

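No member passed the threshold under any alternative except 2, Fanci and Blm, in the Mki67 fit with no group term, where 56 genes passed. The cause of these changes was not tested. Taking the mean of probe sets could not alter a member's values, as each had 1 probe set. The filter on dim genes removed no member. The median difference of the members in the comparisons with control ranged, over single tumours left out, from 0.13 to 0.22 (BMS754807), 0.0048 to 0.12 (hydroxychloroquine) and 0.21 to 0.35 (combination). Genes past the threshold numbered 1 for hydroxychloroquine against control and 1 for its main effect with the replicate block, 5 for that main effect with trended and robust variance, and, for the Mki67 slope, 4 with quantile normalization, 3 without the dimmest 0.25 of genes, 4 with trended and robust variance and 8 without the muscle-rich tumours. With a tumour left out these counts were 0 to 1 (BMS754807 against control and combination against BMS754807), 0 to 2 (hydroxychloroquine main effect) and 0 to 4 (Mki67). Same-numbered tumours of different groups had correlated deviations of -0.25 to 0.30 (median -0.0075), 9 of 36 pairs were over 0.1, and 6 of 24 arrays were nearest to their own number, so the numbers were not taken to pair tumours; the block changed no other call. Quantile normalization gave -0.022 for Brca1 (combination against hydroxychloroquine) and -0.033 for Rad51ap1 (hydroxychloroquine main effect). Array weights gave -0.048 for Fancd2 (BMS754807 against control), -0.0090 for Rad51ap1 (hydroxychloroquine main effect), and interactions of 0.038 for Brca2 and -0.0050 for Chek1. Mki67 as covariate gave Brca1 -0.012 and Fancd2 -0.21 (BMS754807 against control), Fancd2 0.057 (hydroxychloroquine against control), Brca1 -0.19 (combination against hydroxychloroquine), and Brca1 -0.10 and Fancd2 -0.061 (BMS754807 main effect). Without the 2 tumours farthest in Mki67, control 6 and hydroxychloroquine 3, slopes were 0.0022 for Atm and 0.11 for Nbn. Leaving out the 3 tumours of lowest weight, chosen after seeing the data, gave Fancd2 -0.13 (BMS754807 against control), Brca2 -0.054 and Chek1 -0.042 (hydroxychloroquine against control), Chek1 -0.0040 (combination against BMS754807) and -0.023 (hydroxychloroquine main effect), a Brca2 interaction of 0.21 and a median of -0.025 for hydroxychloroquine against control. Leaving out the 5 muscle-rich tumours, also chosen afterwards, gave Fancd2 -0.026 (BMS754807 against control), Brca2 -0.012 (hydroxychloroquine against control), Atm -0.036 (combination against control), Brca1 -0.12 (combination against hydroxychloroquine), Rad51ap1 -0.035 (hydroxychloroquine main effect), and interactions of 0.18 for Brca2 and -0.0055 for Chek1. Over single tumours left out, ranges that crossed 0 were -0.10 to 0.18 for Fancd2 (BMS754807 against control), -0.02 to 0.30 for Brca2, -0.14 to 0.051 for Fancd2 and -0.15 to 0.021 for Rad51ap1 (hydroxychloroquine against control), -0.004 to 0.19 for Chek1 (combination against BMS754807), -0.089 to 0.12 for Brca1 (combination against hydroxychloroquine), -0.13 to 0.011 for Fancl (BMS754807 main effect), -0.041 to 0.073 for Rad51ap1 and -0.074 to 0.0027 for Atm (hydroxychloroquine main effect), -0.19 to 0.14 for Brca2 and -0.091 to 0.11 for Chek1 (interaction), and -0.31 to 0.10 for the slope of Nbn.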
